A study of Mus musculus with 6 samples.

Results

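Neuroendocrine cells were followed through 9 marker genes: Chga, Chgb, Scg2, Scg3, Syp, Insm1, Ncam1, Eno2 and Calca. They were chosen by name, and all 9 were among the 24421 gene symbols in the deposited tables. The samples were 4 from prostates of castrated mice and 2 from prostates of intact mice, of a single genotype in which PB-Cre4, a Cre recombinase under a probasin promoter, deletes a gene flanked by LoxP sites in prostate epithelium. Both groups carried this deletion, so no undeleted sample entered, and cells outside the epithelium keep the gene. The age of the mice and the time since castration are not given in the sources used here. Nor is it stated whether each sample came from its own animal, and the p-values therefore speak only of the spread among these 6 samples, part of which may be technical. The labels name the tissue as prostate. The luminal keratin gene Krt8, named after its values were seen, was among the abundant genes in all 6 samples.

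Neuroendocrine cells are rare, hormone-secreting epithelial cells of the normal prostate that store peptides and amines in dense-core granules. Most lack the androgen receptor, and tumours rich in cells with these markers are a known form of prostate cancer that grows after androgen withdrawal. The same granule and vesicle proteins are made by neurons, including the autonomic neurons that supply the prostate, so in a whole-tissue sample these genes mark neuroendocrine cells and nerve cells alike. In bulk RNA, fewer cells of a type and less RNA per cell cannot be told apart.

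The number of reads counted in genes ran from 43679297 to 59170793 per sample. Fkbp5, an androgen receptor target used as a check of castration, was at 29.7 to 34.1 rescaled CPM in castrated and 251 to 254 in intact prostates. Rescaled CPM is the number of reads per 1000000 counted reads, divided by a size factor that evens out composition between samples. Of 13898 genes tested with limma, 274 or 1.97% passed an adjusted p of 0.05, 97 (0.698%) higher and 177 (1.27%) lower in castrated prostates. This count was 1 without intact sample 2, 9 without intact sample 1, 46, 78 and 83 without castrated samples 3, 1 and 2, and 1052 without castrated sample 4.

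None of the markers passed the test in limma. Of the 9, 4 were expressed strongly enough to be tested (Chga, Syp, Ncam1 and Eno2), and 0 of those 4 had an adjusted p under 0.05, against the background of 1.97%. At an unadjusted p under 0.05 there was 1, Eno2, against 15.9% of all tested genes. On recovered reads, edgeR called 0 and DESeq2 called 2, Syp and Eno2, both lower in castrated prostates, against 1.46% and 9.30% of all tested genes. The share called lower by DESeq2 was 4.54%. With no filter on low values limma called 0 of the 9, against 0.872% of all genes with a read, and 1 of the 9, Calca, had an unadjusted p under 0.05, against 13.9%. The median log2 difference of the 4 tested markers was -1.06, against 0.00 over all tested genes. In all, 8 of the 9 markers had a lower mean in castrated than in intact prostates, and the same 8 had their highest value of all in intact sample 2. Over all genes with a read, 16.9% were highest in that sample. The plot of levels by sample shows this.

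**Figure D1:**
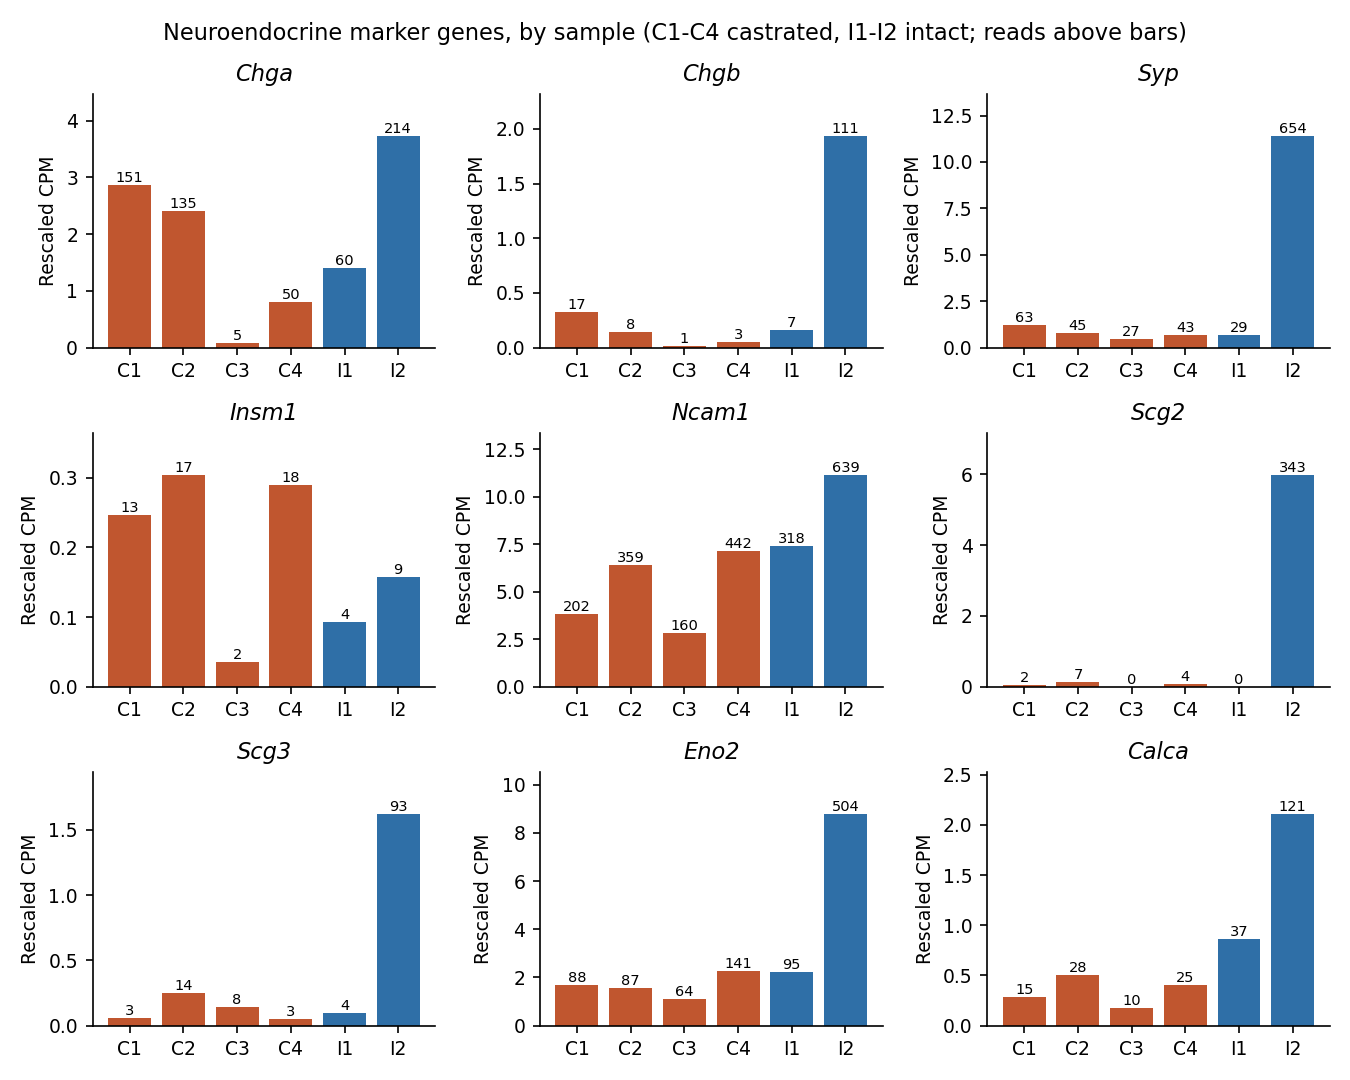
Rescaled CPM (bars, linear axis from 0) of each neuroendocrine marker gene in castrated samples 1 to 4 (C1 to C4, orange) and intact samples 1 and 2 (I1 and I2, blue), with the number of reads above each bar. Intact sample 2 is the highest bar for every gene but Insm1, and castrated sample 3 is the lowest castrated bar for every gene but Scg3.

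The granins are acidic proteins that are packed with hormones into dense-core granules, and Chga, which encodes chromogranin A, is the marker most used in pathology. Chga (chromosome 12, 102554969 to 102565028) was at 2.86, 2.42, 0.0877 and 0.805 rescaled CPM in castrated samples 1 to 4, and at 1.40 and 3.73 in intact samples 1 and 2. The groups overlapped: castrated samples 1 and 2 lay between the 2 intact samples, while castrated sample 3 held 5 reads against 151 in castrated sample 1, a 32.7-fold spread within the group. Chga averaged 1.54 ± 1.31 in castrated prostates (SD, n = 4) and 2.57 ± 1.65 in intact prostates (SD, n = 2). The log2 difference was -0.78 with a 95% interval of -2.59 to 1.04 (limma adjusted p = 0.694). It was -0.28 without castrated sample 3, -0.20 without intact sample 2 and -1.36 without intact sample 1.

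The other 3 granin genes were near the limit of detection in all samples but 1. Scg2 (chromosome 1, 79434669 to 79440120), the source of the peptide secretoneurin, had 2, 7, 0 and 4 reads in castrated samples 1 to 4 and 0 and 343 reads in intact samples 1 and 2. A count of 0 allows up to 3 reads, or 0.0537 CPM in castrated sample 3 and 0.0687 CPM in intact sample 1 before rescaling, so intact sample 2, at 5.98 rescaled CPM, stood at least 85.4-fold higher than intact sample 1. Such floors cover counting error only. Chgb (chromosome 2, 132781278 to 132795079), which encodes chromogranin B, had 17, 8, 1 and 3 reads in castrated and 7 and 111 in intact samples. Scg3 (chromosome 9, 75643189 to 75684056), whose product binds chromogranin A and sorts it into granules, had 3, 14, 8 and 3 reads in castrated and 4 and 93 in intact samples. For each of these 3 genes intact sample 1 lay within the castrated range, and intact sample 2 stood 11.8-fold above intact sample 1 for Chgb and 17.4-fold for Scg3. None reached 1 CPM in 2 samples, so none was tested with the filter in place. With no filter their log2 differences were -1.03, -1.70 and -0.86 for Chgb, Scg2 and Scg3 (limma adjusted p = 0.449, 0.486 and 0.498).

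The start regions of the 4 granin genes are shown because a cAMP response element near the start is a known feature of Chga, Chgb and Scg2. Over the 6 samples Chgb, Scg2 and Scg3 were alike, with a Pearson r of log2 values of 0.925 to 0.981. Chga was less like them, at 0.510 to 0.701, though all 4 were highest in intact sample 2. The likeness was not particular to granins. Syp was at 0.947 to 0.991 with Chgb, Scg2 and Scg3, and Eno2 at 0.888 to 0.946, both without TGACG in their windows. Outside intact sample 2, Chgb, Scg2 and Scg3 had 0 to 17 reads per sample, so these r values rest largely on that sample. Whether the element bears on the levels of the granin genes was not tested. Each window runs from 250 bases before to 50 bases after the start in RefSeq on GRCm38.p6, 5′ to 3′ on the gene's strand. Capitals mark the element TGACGTCA, or its first letters TGACG where the rest differs, and in Scg2 also GGTGCTGAA, the reverse complement of TTCAGCACC, the left part of the element bound by the repressor REST. The windows are chr12:102554691-102554990 on the plus strand for Chga, chr2:132781392-132781691 on the plus strand for Chgb, chr1:79439977-79440276 on the minus strand for Scg2 and chr9:75684007-75684306 on the minus strand for Scg3.
Chga: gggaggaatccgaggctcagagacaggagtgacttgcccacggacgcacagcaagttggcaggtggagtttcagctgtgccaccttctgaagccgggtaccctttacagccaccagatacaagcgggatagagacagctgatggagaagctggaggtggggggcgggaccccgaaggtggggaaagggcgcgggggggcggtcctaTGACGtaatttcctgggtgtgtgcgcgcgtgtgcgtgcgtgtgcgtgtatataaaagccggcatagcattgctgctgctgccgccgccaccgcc
Chgb: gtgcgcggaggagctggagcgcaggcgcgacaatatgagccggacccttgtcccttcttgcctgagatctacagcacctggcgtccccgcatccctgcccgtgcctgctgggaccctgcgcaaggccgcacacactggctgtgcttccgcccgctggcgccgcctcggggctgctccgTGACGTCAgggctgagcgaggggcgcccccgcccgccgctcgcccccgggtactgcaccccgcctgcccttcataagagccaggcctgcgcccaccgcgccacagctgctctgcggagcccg
Scg2: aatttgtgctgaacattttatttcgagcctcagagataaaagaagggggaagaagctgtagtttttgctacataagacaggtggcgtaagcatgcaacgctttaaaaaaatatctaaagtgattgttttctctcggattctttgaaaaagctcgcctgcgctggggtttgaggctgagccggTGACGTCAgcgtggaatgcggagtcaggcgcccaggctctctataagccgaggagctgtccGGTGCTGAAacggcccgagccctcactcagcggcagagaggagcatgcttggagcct
Scg3: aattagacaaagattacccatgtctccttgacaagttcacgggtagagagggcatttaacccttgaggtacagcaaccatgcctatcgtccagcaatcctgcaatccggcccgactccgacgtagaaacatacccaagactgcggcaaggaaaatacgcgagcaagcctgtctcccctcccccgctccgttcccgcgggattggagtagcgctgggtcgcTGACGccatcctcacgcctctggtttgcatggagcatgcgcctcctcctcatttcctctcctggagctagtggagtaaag

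RefSeq windows matched 7 of the 9 markers, all but Insm1 and Ncam1, and both strands were searched. The whole element TGACGTCA was found in 2 of these 7, Chgb and Scg2, and in 1.79% of all 32851 windows. It lay from 72 to 65 bases before the start in Chgb and from 68 to 61 bases before it in Scg2. The shorter TGACG, which also counts each whole element, was found in 5 (Chga, Chgb, Scg2, Scg3 and Calca) and in 20.8% of all windows, and in Chga it began 44 bases before the start. The REST letters TTCAGCACC were found in Scg2 alone of the 7 and in 0.371% of all windows. The full androgen response element, made of AGAACA and its reverse complement with 3 bases between, was found in 0 of the 7 and in 0.00913% of all windows. Its first part AGAACA was found in Syp and in 19% of all windows. The right part of the REST element, GGACAGC, was found in Scg2, directly before the left part on the printed strand, and in 6.56% of all windows. CAGCTG, an E-box, was found in 3 of the 7 (Chga, Chgb and Calca) and in 16.3% of all windows. A match is a stretch of letters and shows no binding.

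Syp encodes synaptophysin, a membrane protein of small synaptic vesicles. Syp (chromosome X, 7638471 to 7653256) was at 1.19, 0.806, 0.473 and 0.692 rescaled CPM in castrated samples 1 to 4, and at 0.677 and 11.4 in intact samples 1 and 2. Intact sample 1 lay within the castrated range and intact sample 2 alone stood out, 16.8-fold above intact sample 1. The log2 difference was -1.56 with a 95% interval of -3.58 to 0.45 (limma adjusted p = 0.437). DESeq2 gave -2.94 with an adjusted p of 0.0225, and edgeR -2.94 with an adjusted p of 0.183. Without intact sample 1 the log2 difference was -3.24 (limma adjusted p = 0.117), and without intact sample 2 the gene fell below the filter and was not tested. An antisense gene, Gm14703, covers 16.8% of the exon bases of Syp, and without a stated strand setting reads from the pair cannot be told apart.

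Eno2 encodes neuron-specific enolase, a glycolytic enzyme of neurons and neuroendocrine cells. Eno2 (chromosome 6, 124760053 to 124769673) was at 1.67, 1.56, 1.12 and 2.27 rescaled CPM in castrated samples, and at 2.22 and 8.79 in intact samples. Intact sample 1 lay within the castrated range, and intact sample 2 was 3.87-fold above the highest castrated sample. The log2 difference was -1.25 with a 95% interval of -2.43 to -0.06 (unadjusted p = 0.0420, limma adjusted p = 0.288). It was -0.36 without intact sample 2 and -2.14 without intact sample 1 (limma adjusted p = 0.817 and 0.159), and DESeq2 gave -1.74 with all samples (adjusted p = 0.0492). Eno1b, a near-identical copy of the widely expressed enolase gene Eno1 with which reads may be shared, was at 65.7 to 79.5 in castrated and 76.4 to 80.3 in intact prostates, with a log2 difference of -0.12 (limma adjusted p = 0.642).

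Ncam1 encodes the neural cell adhesion molecule, which is also made by neurons and Schwann cells. Ncam1 (chromosome 9, 49502136 to 49798925) had the most reads of the 9, with 202, 359, 160 and 442 in castrated samples 1 to 4 and 318 and 639 in intact samples. Its level was 3.83, 6.43, 2.81 and 7.12 rescaled CPM in castrated samples, and 7.42 and 11.1 in intact samples. The groups did not overlap, but intact sample 1 was only 1.04-fold above castrated sample 4. Ncam1 averaged 5.05 ± 2.06 in castrated prostates (SD, n = 4) and 9.28 ± 2.63 in intact prostates (SD, n = 2). The log2 difference was -0.87 with a 95% interval of -1.80 to 0.05 (limma adjusted p = 0.338), and it was -0.60 without intact sample 2 (limma adjusted p = 0.767).

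Calca yields the hormone calcitonin and the neuropeptide CGRP by alternative splicing, which a count per gene does not separate. Calca (chromosome 7, 114631478 to 114636357) was at 0.284, 0.501, 0.175 and 0.403 rescaled CPM in castrated samples, and at 0.864 and 2.11 in intact samples. The groups did not overlap, and intact sample 1 was 1.72-fold above the highest castrated sample. Ncam1 and Calca were the 2 of 9 markers with every castrated sample below every intact sample, against 11.6% of all genes with a read. Only intact sample 2 passed 1 CPM, so Calca was not tested with the filter in place. With no filter its log2 difference was -1.18 with a 95% interval of -1.89 to -0.47 (unadjusted p = 0.00662, limma adjusted p = 0.150). Its close paralog Calcb, with which reads may be shared, was at 3.94, 22.4, 4.56 and 17.0 in castrated and 14.1 and 11.0 in intact samples, a log2 difference of -0.41 (limma adjusted p = 0.851). Among the castrated samples both genes were highest in sample 2, next in sample 4 and lower in samples 1 and 3. In the intact samples Calcb lay within its castrated range and Calca above its own.

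Insm1, a zinc finger transcription factor that drives neuroendocrine differentiation, was the marker without a peak in intact sample 2. Insm1 (chromosome 2, 146221921 to 146225020) had 13, 17, 2 and 18 reads in castrated samples and 4 and 9 reads in intact samples. Its level was 0.247, 0.304, 0.0351 and 0.290 rescaled CPM in castrated samples, against 0.0934 and 0.157 in intact samples, with both intact samples inside the castrated range. No sample reached 1 CPM, and with no filter the log2 difference was 0.18 with a 95% interval of -0.25 to 0.62 (limma adjusted p = 0.724).

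Levels were compared between the genes per kilobase of exon. In castrated prostates Ncam1 came first at 0.582 rescaled CPM per kb, followed by Chga at 0.560, Eno2 at 0.352, Calca at 0.202, Syp at 0.152, Insm1 at 0.0706, Chgb at 0.0485, Scg3 at 0.0453 and Scg2 at 0.0226. Neighbours in this order overlapped over the 4 castrated samples, and the ranges also overlapped between Ncam1 and Eno2. In intact sample 2 the order was different, with Scg2 first at 2.38 per kb, Syp at 2.19 and Eno2 at 1.87. In intact sample 1, Ncam1 was first at 0.857, with Calca at 0.513 and Chga at 0.508, and Scg2 was at 0.

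**Figure D2:**
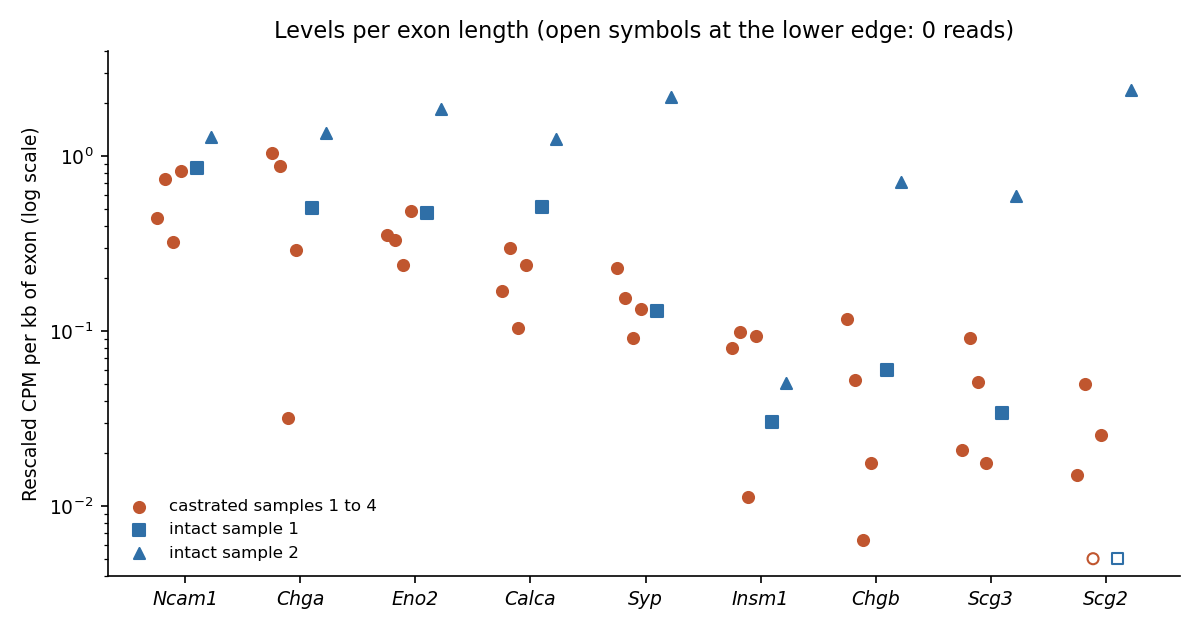
Rescaled CPM per kilobase of exon (log axis) of the 9 markers in the castrated samples (orange circles), intact sample 1 (blue squares) and intact sample 2 (blue triangles), ordered by the castrated mean. Open symbols at the lower edge stand for 0 reads in Scg2. Intact sample 1 lies within the castrated range for 7 of the 9 genes, and intact sample 2 lies above both for all but Insm1.

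Intact sample 1 lay within the range of the castrated samples for 7 of the 9 markers, all but Ncam1 and Calca, against 56.0% of all genes with a read. Without intact sample 2, 3 markers could be tested, and their median log2 difference was -0.36. With all samples these 3, Chga, Ncam1 and Eno2, were at -0.78, -0.87 and -1.25. The median of the 4 tested with all samples was -1.06, with Syp, at -1.56, among them. Without intact sample 1, 4 were tested, 0 were called, and the median was -1.75. In these fits the lone intact sample is assumed to vary like the castrated ones.

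**Figure D3:**
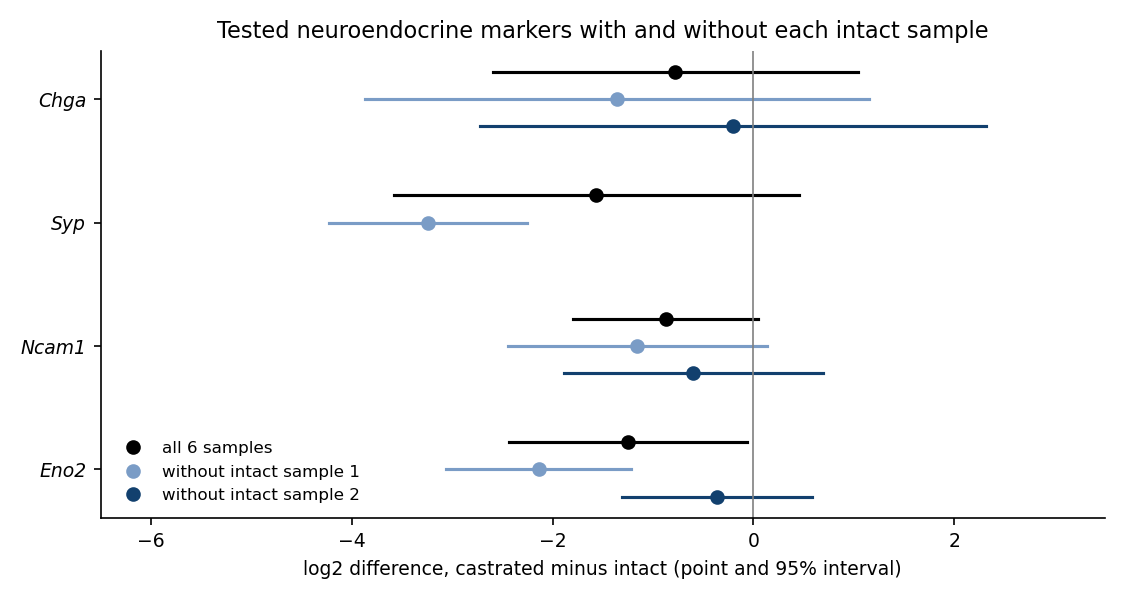
Log2 difference, castrated minus intact, with its 95% interval from limma, for the 4 tested markers with all 6 samples (black), without intact sample 1 (light blue) and without intact sample 2 (dark blue). Syp has no value without intact sample 2, since it then fell below the filter. Without intact sample 2 the intervals of Chga, Ncam1 and Eno2 all include 0.

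Nerve genes moved with the markers in intact sample 2. Of 18 genes of neurons and nerve fibres, 17 were highest in that sample, and 14 were at least 5-fold above intact sample 1. Of the 8 that were tested this held for 4, against 1.00% of all tested genes. Their summed level was 37.5 to 46.1 rescaled CPM in castrated samples, 59.6 in intact sample 1 and 227 in intact sample 2, and 4 of the 18 were at 0 in intact sample 1. The neurofilament gene Nefl was named after its values were seen, and its exons overlap those of Nefm on the other strand. It was at 0 to 0.143 in castrated samples, and at 0 and 9.70 in intact samples 1 and 2. The part of nerve tissue in the marker levels was not tested.

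Dbh, Th and Vip, autonomic transmitter genes of the peptide and amine list named after their values were seen, followed the same pattern. The list as a whole was mixed. Of its 22 genes, 12 were highest in intact sample 2, against 16.9% of all genes with a read. In that sample 10 were at least 5-fold above intact sample 1. Of the 8 tested this held for 2, against 1.00% of all tested genes. In 3 of the 22, every castrated sample lay above every intact sample. Dbh, which makes noradrenaline, had 8 reads over the 4 castrated samples and 476 over the intact samples, all in intact sample 2. Th, the first enzyme of catecholamine synthesis, was at 0.0161 to 0.0895 rescaled CPM in castrated samples, and at 0 and 5.70 in intact samples 1 and 2. Vip, a neuropeptide of parasympathetic nerves, was at 0 to 0.465 in castrated samples, and at 0 and 20.7 in intact samples 1 and 2. Of 14 Schwann cell genes, 10 were tested and 0 called by limma, edgeR or DESeq2 (0 at an unadjusted p under 0.05 in limma), with a median log2 difference of -0.06. In all, 9 of the 14 were highest in intact sample 2, and 5 were at least 5-fold above intact sample 1 there. Of the 10 tested this held for 3, against 1.00% of all tested genes. The median ratio of intact sample 2 to intact sample 1 was 2.92 over the 14. Without intact sample 1 the list's median log2 difference was -0.65 over 10 tested genes, and without intact sample 2 it was 0.33 over 9. The summed level of the 14 was 232 to 330 in castrated samples, 241 in intact sample 1 and 357 in intact sample 2. The gene with the smallest p on that list, Scn7a, a sodium channel gene, did not share the peak, at 8.09 to 19.3 in castrated samples and 18.5 and 19.1 in intact samples (limma adjusted p = 0.388), and Ngfr, a neurotrophin receptor gene, was at 9.42 to 19.7 in castrated and 15.1 and 44.8 in intact samples (limma adjusted p = 0.423). Luminal, basal and smooth muscle genes did not separate the intact pair in this way: their summed levels in intact samples 1 and 2 were 8215 and 7982, 4814 and 5083, and 280.4 and 287.7.

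**Figure D4:**
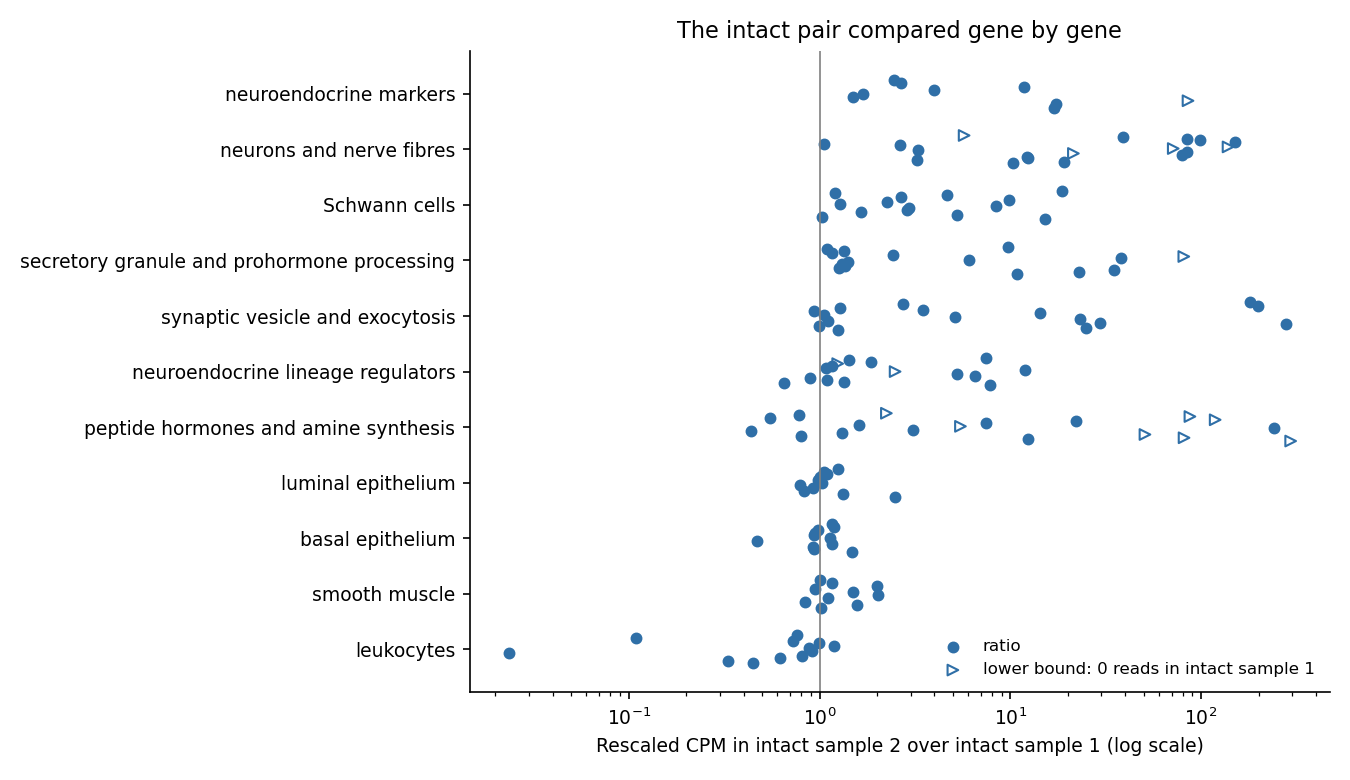
Rescaled CPM in intact sample 2 over that in intact sample 1 (log axis), 1 point per gene, for the markers and 10 other lists, leaving out genes with 3 or fewer reads in intact sample 2. Open triangles are lower bounds for genes with 0 reads in intact sample 1, set against a floor of 3 reads. Markers and nerve genes lie to the right of 1, with a median ratio of 3.31 over 8 markers and 15.8 over 14 nerve genes that had a read in intact sample 1, and luminal genes lie around 1.03.

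Of the nerve list, 8 genes were tested and 1 was called, lower in castrated prostates, with a median log2 difference of -1.20. This median was 0.13 without intact sample 2 and -2.76 without intact sample 1. Of the 8, edgeR called 1 and DESeq2 4, all lower, against 1.46% and 9.30% of all tested genes. The called gene was Stmn2, a microtubule regulator of growing axons, at 1.33, 1.90, 1.49 and 1.92 rescaled CPM in castrated samples and at 8.26 and 26.9 in intact samples. Here intact sample 1 also stood above every castrated sample, and the log2 difference was -2.85 ± 0.44 (SE; limma adjusted p = 0.0359). It was -2.04 without intact sample 2 (limma adjusted p = 0.122) and -3.68 without intact sample 1, and it stayed called in 2 of 6 fits with a sample removed, those without castrated sample 4 or intact sample 1. With no filter on low values the call was lost (limma adjusted p = 0.0674).

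A second pattern concerned castrated sample 3, in which 8 of the 9 markers had their lowest castrated value, against 17.0% of all genes with a read. The spread between the highest and the lowest castrated sample was 32.7-fold for Chga, 18.4-fold for Chgb and 8.68-fold for Insm1, and 2.02-fold for Eno2. Of the other lists, 5 of 16 granule genes and 6 of 22 peptide and amine genes had their lowest castrated value there. The same held for 8 of 16 synaptic vesicle genes, 7 of 20 lineage regulators and 4 of 14 Schwann cell genes. It also held for 5 of 8 endothelial and 5 of 12 leukocyte genes. Among fibroblast, basal and luminal genes it held for 2 of 8, 2 of 11 and 0 of 11. An amine gene and a granule gene were named after the values were seen. Tph1, which starts serotonin synthesis, had 0 reads in castrated sample 3 and was at 0.266 to 0.985 in the other castrated samples and at 0.0467 and 0.576 in intact samples. Pcsk1, a prohormone convertase, was at 0.0526 in castrated sample 3, 0.662 to 0.725 in the other castrated samples and 0.700 and 1.71 in intact samples. Castrated sample 3 did not stand apart on the nerve list, with a summed level of 43.0 rescaled CPM against 37.5 to 46.1 over the castrated samples, and 3 of the 18 nerve genes had their lowest castrated value there. Smooth muscle genes were also low in it, with a summed level of 355 against 463 to 562.3 in the other castrated samples and 9 of 10 genes at their lowest castrated value. Basal genes were low in castrated samples 1 and 3, with summed levels of 1303 and 1593, against 4304 and 3672 in castrated samples 2 and 4, although Chga was highest in castrated sample 1. Their part in the marker levels was not tested. Castrated sample 3 held 55864253 counted reads, near the middle of the range of depths.

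Of 20 lineage regulators, 9 were tested and 1 was called, higher in castrated prostates, with a list median of 0.24. Of the 9, edgeR called 0 and DESeq2 3, all higher, against 1.46% and 9.30% of all tested genes. Peg10, an imprinted gene that carries retroviral-like coding sequence and is known from neuroendocrine prostate cancer, rose to 39.9, 35.7, 34.8 and 14.9 rescaled CPM in castrated samples, against 0.257 and 1.67 in intact samples. Its log2 difference was 4.54 ± 0.54 (SE; limma adjusted p = 0.0174), and over fits with 1 sample left out it ranged from 3.78 without intact sample 1 to 5.31 without intact sample 2, and it stayed called in 1 of these 6 fits, that without castrated sample 4. In edgeR it was not called (adjusted p = 0.050004). The classic regulators Neurod1 and Nkx2-2, named after their values were seen, had 1 read each over all 6 samples. The repressor gene Rest, named after its values were seen, was at 13.2 to 31.9 in castrated and 18.7 and 20.5 in intact samples (limma adjusted p = 0.924).

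Of 22 genes of peptide hormones and amine synthesis, 8 were tested and 1 was called, lower in castrated prostates. The list median was -0.40 over these 8. Without intact sample 2 it was 0.36 over the 7 genes then tested, which leave out the called gene, Grp. On recovered reads, edgeR called 1 of the 8, lower, and DESeq2 4, 2 higher and 2 lower. The shares over all tested genes were 1.46% and 9.30%. Grp, which encodes the bombesin-like peptide of prostate neuroendocrine cells, had 4, 1, 1 and 4 reads in castrated samples 1 to 4 and 56 and 121 reads in intact samples. Every castrated sample was at or below 0.0759 rescaled CPM, against 1.31 and 2.11 in intact samples, and both intact samples stood above every castrated one. Its log2 difference was -1.999 ± 0.29 (SE; limma adjusted p = 0.0286), and edgeR, fitted to the reads, gave -5.22 (adjusted p = 0.0182). Grp passed the filter through its intact samples alone, which favours a difference, and it was not tested without either of them. With no filter it stayed called (limma adjusted p = 0.00904). Without castrated sample 1, 2 or 3 its call was lost (limma adjusted p = 0.0786, 0.0910 and 0.0927).

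Of 16 genes of secretory granules and prohormone processing, 9 were tested, with a median log2 difference of -0.31. Of these, 0 were called in limma, 3 at an unadjusted p under 0.05, 0 in edgeR and 1, higher, in DESeq2. The shares over all tested genes were 1.97%, 15.9%, 1.46% and 9.30%. The smallest p belonged to Pam, which amidates peptide hormones, at 200.2 to 329 rescaled CPM in castrated and 135 and 156 in intact prostates (log2 difference 0.92, limma adjusted p = 0.0883). Cadps, which primes dense-core granules for release, was at 17.7 to 109 in castrated prostates and at 1.42 and 13.9 in intact ones (log2 difference 3.08, limma adjusted p = 0.175). Of 16 genes of synaptic vesicles and exocytosis, 8 were tested, with a median of 0.43, which was -0.03 without intact sample 1. Against the same shares, 0 were called in limma, 3 at an unadjusted p under 0.05, 0 in edgeR and 1, lower, in DESeq2. Sv2b, a vesicle glycoprotein gene, was at 1.69 to 3.26 in castrated and 0.957 and 1.01 in intact prostates (log2 difference 0.82, limma adjusted p = 0.2196).

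The genes whose pattern over the 6 samples was most like that of a marker were taken for Ncam1, Eno2 and Syp, the 3 tested markers with the highest mean. By Pearson r of the log2 values, Ncam1 was closest to Hirip3 (0.997), Egfr (0.988) and Sfi1 (0.987). Eno2 was closest to Rsph9 (0.998), Ncoa4 (0.988) and Scn3b (0.985), and Syp to Ctnna1 (0.989), Mamld1 (0.980) and Smarcd3 (0.980). All 9 of these genes were highest in intact sample 2, and the likeness describes these libraries alone.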

How the data were processed

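RNA-seq was made from total RNA of 6 prostate samples, 4 castrated and 2 intact, grouped by their labelled titles. The authors deposited CPM values, reads per 1000000 counted in genes, in 1 table per sample; per the submitters' processing notes TopHat2, HTSeq, edgeR and mm10 were used, while the sources used here give no settings, strand or versions. Every column added up to 1000000. Within a sample, dividing by the lowest value above 0 gave a whole number for 100% of values (tolerance 1e-06), so whole reads were recovered.

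CPM was divided by median-of-ratios size factors (0.981 to 1.05). Genes with at least 1 CPM in at least 2 samples, 13898, were tested with limma 3.58.1 (R 4.3.3) on log2(rescaled CPM + 0.5), with a mean-variance trend, two-sided, and Benjamini-Hochberg adjustment over all tested genes at 0.05. This scale understates differences of weakly expressed genes. The recovered reads were tested with edgeR 4.0.16 (quasi-likelihood), which called 203 genes, and DESeq2 1.42.0, which called 1293. The scripts were tested on simulated data. The other alternatives were pseudocounts of 0.1 and 1, no filter or a filter at 0.2 CPM, other scalings, no trend, array weights, a replicate block and each sample left out.

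The markers and lists were chosen with earlier results of these data known. Besides the 9 markers, the genes named are those called on each list, at most 5, or else the 2 with the smallest p for lists that bear on the markers, the 3 genes most like each of the 3 most abundant tested markers, and Fkbp5; others are marked as chosen after their values were seen. Of the lists for other cells, luminal epithelium had 1 of 11 tested genes called (median -0.17), basal epithelium 2 of 11 (-0.82), smooth muscle 0 of 10 (0.86), fibroblasts 0 of 8 (-0.40), endothelium 0 of 8 (-0.30), leukocytes 2 of 12 (0.06) and relatives of the markers 0 of 4 (-0.08). Positions and exon lengths are from GENCODE M21 (GRCm38, the assembly mm10 names), and start regions from RefSeq (GRCm38.p6). Some genes that this rule names, and the deleted gene, are not reported here.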

Additional observations from a re-analysis of the deposited data

Results flagged for a closer look

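In 4 castrated samples, a value was looked at again where its gap to the nearest other sample took up most of the range of the group (Dixon's 95% limit). Of 50 genes and summed lists checked in this way 3 passed the limit, and chance passes about 1 in 20. Pcsk1, the prohormone convertase gene, was at 0.0526 rescaled CPM in castrated sample 3 and at 0.662 to 0.725 in the other castrated samples. S100a8, a neutrophil gene of the leukocyte list, was at 93.1 in castrated sample 3, above the 53.2 to 59.2 of the others. The summed level of 8 endothelial genes was 147.6 in castrated sample 4, against 85.7 to 88.1 in the others.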

How the results depend on the processing

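The count of called markers was 0 in limma under each of 16 limma alternatives, the 6 that left out a sample among them, and in edgeR, and 2 in DESeq2 (Syp and Eno2). The log2 differences of Syp, Ncam1 and Eno2 were below 0 in each alternative that tested them, and that of Chga was below 0 in 17 of 18. With the replicate block it was 0.14 for Chga, and the call of Grp was lost (limma adjusted p = 0.122); the cause was not tested. The count of all called genes was 170 with no filter, 954 with array weights, 417 with the replicate block and 1293 in DESeq2, and ranged from 1 to 1052 with 1 sample left out. The groups share the replicate numbers 1 and 2, but nothing in the labels pairs them. Deviations from the group means correlated at 0.0755 for number 1 and 0.226 for number 2. With 2 intact samples the deviations mirror each other, so these values are not separate checks and cannot decide on pairing. Intact sample 1 gave -0.226, 0.106 and 0.0202 with castrated samples 2, 3 and 4. Chgb, Scg2, Scg3 and Insm1 had under 20 reads in most samples, and the fold that these depths could detect was not measured.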
